A study of Rattus norvegicus with 6 samples.

Results

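The 8 genes described here are 6 CC chemokines, Ccl2, Ccl3, Ccl4, Ccl5, Ccl7 and Ccl20, and the receptors Ccr1 and Ccr2. They were chosen by name, and their probes were those whose RefSeq transcript accession belongs to one of the 8 genes, which gave 13 of the 61657 non-control probes on the array. All 8 genes were among the 31915 features that were tested. The animals were 6 male rats of the Sprague-Dawley stock Crl:CD(SD), bought at 5 weeks of age, and RNA of each animal's renal cortex went on 1 array of the 1-colour Agilent type. The control group of 3 rats had water for 4 weeks. The other group of 3 rats received N-nitrosodimethylamine (NDMA) for 4 weeks at 4 mg/kg/day. NDMA is a nitrosamine whose oxidised product adds methyl groups to DNA. Both groups had the same basal diet and tap water, and no genetic change is labelled in either. The question was which of these transcripts differed in the cortex after NDMA.

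Chemokines are small secreted proteins that direct the movement of leukocytes, and the CC group is named for the pair of adjacent cysteines near the start of the mature protein. Their receptors span the membrane repeatedly, couple to inhibitory G proteins and are carried mainly by leukocytes. In kidney, injured tubule cells and resident macrophages are known sources of CC ligands, and the pairing of Ccl2 and Ccl7 with Ccr2 is known for drawing monocytes from blood.

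Every value below is a normalised log2 signal, the log2 of the spot's background-subtracted intensity minus the 75th percentile of its array, and every difference is NDMA minus control on that scale with its moderated standard error (SE). Levels were not compared between probes, because probes differ in how strongly they bind. A call is an adjusted p under 0.05 in limma with Benjamini-Hochberg adjustment over all features. Some counts at an unadjusted p under 0.05 stand beside the calls. Unless the count over all features is given with them, they cannot be set against it and are descriptions. The arrays had between 43016 and 46248 probes well above background and at most 4 saturated spots, none of them a spot of the 8 genes. Slide 1 held the 3 controls together with NDMA animal 1, while slide 2, with a different scan day, held NDMA animals 2 and 3. A fit with slide as a block therefore takes its difference from NDMA animal 1 against the controls. Whole cortex was measured, so a larger number of cells of a type and more RNA per cell cannot be told apart. All 5 proximal tubule markers checked lay above the 75th percentile on every array, and of 3 adrenal cortex markers Cyp11b1 and Star were above background on no array and Hsd3b1 on all 6 (difference -0.50 ± 0.30).

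Transcripts of the receptor Ccr2 and of its ligand Ccl7 rose. Ccl2, also a ligand of Ccr2, was higher without passing the test, and Ccl3, Ccl4, Ccl5, Ccl20 and Ccr1 did not pass. Of the 8 genes 2 were called, both higher, where 3.00% of all features were called in either direction, 2.52% higher and 0.476% lower. In the fit over probes 4 of the 13 probes were called, all higher, where 2.99% of all probes were called and 2.50% were called higher. These 4 were the probes of the 2 called genes, so they are no added support. Each met the detection filter through the NDMA group alone. Of the 8, 6 were well above background on all 6 arrays. The 2 called genes are the ones that met the detection filter through the NDMA group alone. That route favours genes that are higher in NDMA, so their number is a description. The groups did not overlap for Ccl2, Ccl3, Ccl7, Ccr1 and Ccr2, all 5 higher in NDMA, where 27.6% of all features had groups that did not overlap and 11.1% had all NDMA animals higher.

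**Figure D1:**
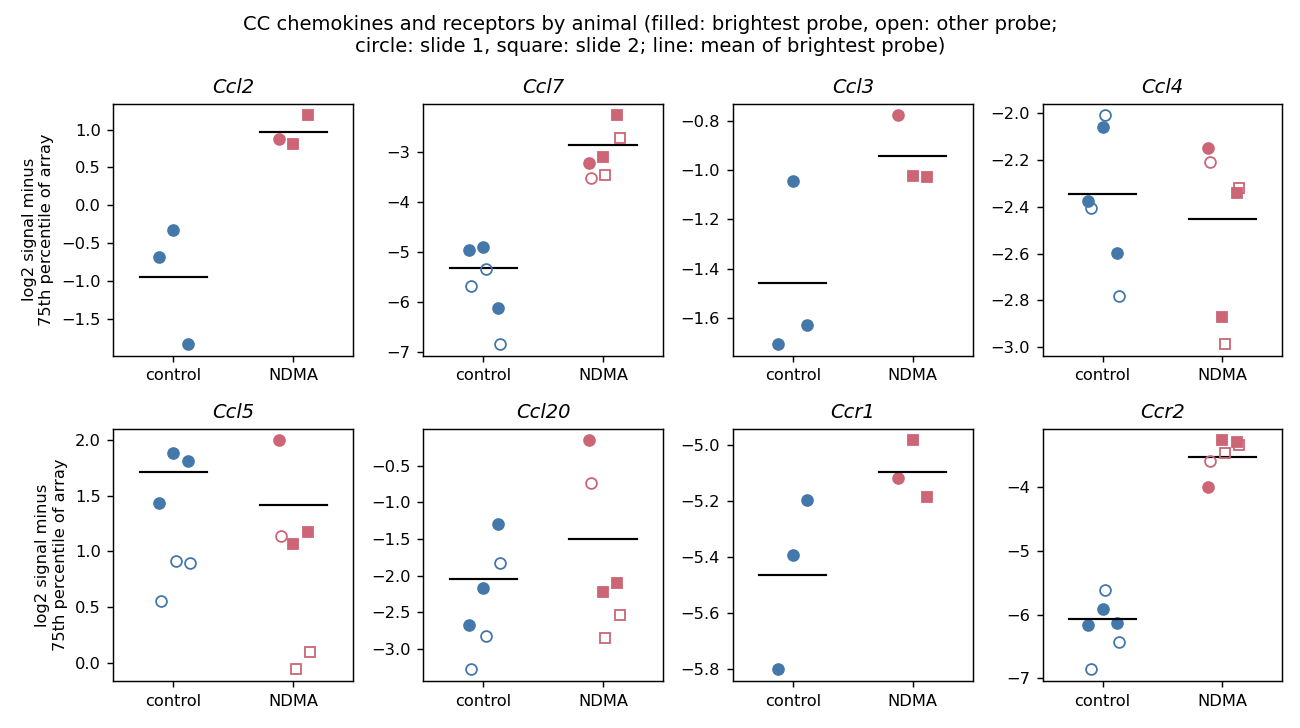
Normalised log2 signal of each probe (vertical axis, log2 signal minus the 75th percentile of the array, with its own scale in each panel) in the 3 control and 3 NDMA rats. Filled symbols are the brightest probe, open symbols the other probe, circles slide 1, squares slide 2 and lines the group means of the brightest probe. Ccl2, Ccl7 and Ccr2 are higher in all 3 NDMA rats than in any control, and for Ccl5 and Ccl20 NDMA animal 1 on slide 1 is the highest of the 6.

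Markers of some leukocyte types rose, as Ccl7 and Ccr2 did, and those of other types did not. Of 10 tested monocyte and macrophage markers 7 rose and 0 fell, with a median difference of 1.18, and their summed linear signal ran from 85.9 to 117 times the 75th percentile in the controls and from 230 to 251 in the NDMA rats, a sum in which Lyz2 is the largest term. T cell markers rose in 5 of 7 tested, with sums of 1.35 to 1.88 and 4.16 to 4.95. Both tested dendritic cell markers and 2 of 4 tested mast cell markers rose, whereas 0 of 4 NK cell, 0 of 3 neutrophil and 0 of 2 B cell markers were called by limma. At an unadjusted p under 0.05 these counts were 3, all lower, 0 and 0. Of the called markers, Cma1, Mcpt1, Xcr1 and the T cell gene Cd3e met the detection filter through the NDMA group alone. That route favours genes that are higher in NDMA, so their calls are descriptions. Cd163, on the monocyte and macrophage list, did not meet the detection filter and is not in those counts. Its probe A_64_P053012 was well above background in 2 controls and 0 NDMA rats. The probe A_43_P18105 was so in 0 controls and 1 NDMA rat, with 1 spot flagged as an outlier, and A_43_P17457 on no array. The NK cell gene Ncr1 was above background on no array. Markers of endothelium, fibroblasts, podocytes and the loop and collecting duct had 0 calls by limma (0, 1, 0 and 1 at an unadjusted p under 0.05). Of 5 proximal tubule markers 1 fell by limma (3 at an unadjusted p under 0.05, all lower), and 0 had a difference above 0. Their summed signal ran from 999 to 1051 in the controls and from 771 to 860 in the NDMA rats. The part of cell numbers in the differences of the chemokine and receptor genes was not tested.

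Promoter windows were given by RefSeq, on assembly GRCr8, for 4 of the 8 genes, Ccl7, Ccl20, Ccr1 and Ccr2. The 250 bases before the annotated start are shown for the called genes Ccl7 and Ccr2 and, as a ligand gene that was not called, for Ccl20. The Ccl7 window is chr10:67513845-67514094, the Ccl20 window chr9:91836909-91837158 and the Ccr2 window chr8:132611953-132612202, all on the plus strand. Capitals mark matches, on either strand, to the letters of 5 motifs: GGG and CC with any 5 bases between them for NF-kB, TGANTCA for AP-1, TTCNNNGAA for the STAT site known as GAS, a pair of GAAA with any 2 bases between them for interferon regulatory factors, and TATAAA for the TATA box.
Ccl7: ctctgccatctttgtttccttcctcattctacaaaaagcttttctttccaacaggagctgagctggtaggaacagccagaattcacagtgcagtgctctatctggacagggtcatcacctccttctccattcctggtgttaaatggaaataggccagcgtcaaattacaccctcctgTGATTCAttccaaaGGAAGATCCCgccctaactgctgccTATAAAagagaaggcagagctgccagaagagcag
Ccl20: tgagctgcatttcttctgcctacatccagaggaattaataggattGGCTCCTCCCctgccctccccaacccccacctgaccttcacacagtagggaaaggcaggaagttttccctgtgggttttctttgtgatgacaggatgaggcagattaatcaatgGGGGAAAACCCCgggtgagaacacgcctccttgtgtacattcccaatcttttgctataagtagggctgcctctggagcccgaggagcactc
Ccr2: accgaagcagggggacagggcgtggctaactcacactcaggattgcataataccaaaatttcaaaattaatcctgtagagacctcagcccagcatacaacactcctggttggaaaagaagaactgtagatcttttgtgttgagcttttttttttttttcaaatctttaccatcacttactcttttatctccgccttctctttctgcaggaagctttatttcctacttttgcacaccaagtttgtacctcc
The Ccl7 window held 1 match to AP-1, TGATTCA, 73 to 67 bases before the start, 1 to NF-kB, GGAAGATCCC, 59 to 50 bases before it, and 1 to the TATA box, 34 to 29 bases before it. The Ccl20 window held NF-kB matches only, GGCTCCTCCC at 205 to 196 bases before the start and 4 that overlap each other in the run from 91 to 80 bases before it, on both strands. No match to the 5 motifs lay in the Ccr2 or the Ccr1 window. Of 33469 windows of this length in the table, 42.3% held the NF-kB letters, 6.34% AP-1, 7.67% GAS, 3.41% the interferon regulatory factor letters and 12.9% TATAAA. A match describes the letters and not a bound site.

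Ccl2 encodes the monocyte chemoattractant MCP-1 and is read by the single probe A_42_P695401 (NM_031530). Its signal was -0.69, -0.32 and -1.83 in controls 1 to 3 and 0.88, 0.82 and 1.19 in NDMA animals 1 to 3. All NDMA rats were above all controls, the NDMA values lay close together and control 3 stood lowest. The difference was 1.91 ± 0.38 (SE, n = 3 per group), a ratio of 3.76, with a 95% interval of 1.00 to 2.83, and the adjusted p of 0.0583 in limma missed the threshold. The spread of the controls (SD 0.79) was larger than that of the NDMA group (SD 0.20). Without control 3 the difference was smaller, 1.47, but passed (adjusted p = 0.0328, limma), and with normexp, which starts from the median spot and background signals and adds an offset that shrinks differences of dim probes, it was 1.79 and passed (adjusted p = 0.0245, limma). Blocking on slide gave 1.83 ± 0.58 (adjusted p = 0.374, limma), and over all 18 other settings the adjusted p ran from 0.0245 to 0.443.

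Ccl7, whose promoter window holds the AP-1, NF-kB and TATA box letters, encodes MCP-3, a further ligand of Ccr2 that also binds Ccr1. By its brightest probe, A_44_P1022002 (NM_001007612), the signal was -4.97, -4.90 and -6.12 in controls 1 to 3 and -3.22, -3.11 and -2.26 in NDMA animals 1 to 3. The groups were apart, with control 3 again the lowest and NDMA animal 3 the highest, and control 3 was not well above background. The rise was 2.46 ± 0.40 (5.52-fold, adjusted p = 0.0323, limma). The other probe, A_44_P391296, gave -5.69, -5.34 and -6.84 in the controls and -3.51, -3.47 and -2.73 in the NDMA rats, the same order of animals at both ends. It differed by 2.72 ± 0.42 (adjusted p over probes 0.0274, limma). With normexp, the difference was 1.14 and still passed (adjusted p = 0.0180, limma). The call was kept without control 3 (adjusted p = 0.0490) and lost without control 1 (0.0774), control 2 (0.0637), and NDMA animal 1 (0.0583), 2 (0.0961) or 3 (0.0892), with differences from 2.07 to 2.68 over these 6 limma fits. Blocking on slide gave 2.11 ± 0.58 (adjusted p = 0.289, limma), and over all 17 other settings the adjusted p ran from 0.0154 to 0.321.

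The transcript of Ccr2, the receptor of Ccl2 and Ccl7 on inflammatory monocytes, had the smallest p of the 8. By its brightest probe, A_64_P100793 (NM_021866), the signal was -6.16, -5.91 and -6.13 in controls 1 to 3 and -4.00, -3.26 and -3.29 in NDMA animals 1 to 3. No control was well above background by this probe, and all NDMA rats were. The fitted difference was 2.55 ± 0.21 (adjusted p = 0.00669, limma). The ratio was 5.57 with each control array counted at the spot's own signal or at that array's lowest well-measured signal, whichever was higher. That ratio allows for the floor of the dim controls only. It takes no account of the spread between animals or of the background method, so it is not a lower limit. The other probe, A_43_P15552, gave -6.86, -5.61 and -6.42 in the controls, of which 1 was well above background, and -3.58, -3.47 and -3.34 in the NDMA rats. Its difference was 2.84 ± 0.30 (adjusted p over probes 0.0101, limma). The call of Ccr2 was kept in each of the 6 fits that left out 1 animal (adjusted p 0.00660 to 0.0307, limma) and when blocking on slide (2.06 ± 0.14, adjusted p = 0.0283, limma, where 0.210% of features were called). With normexp the difference was smaller, 0.78, and passed (adjusted p = 0.00413, limma), where 3.42% of features were called. Blocking on slide left Ccl7 uncalled, so Ccr2 was the 1 gene of the 8 called there. In the fit over probes with that block at least 1 of the Ccr2 probes did not pass. The blocked difference rests on NDMA animal 1 against the controls. Over all 17 other settings the adjusted p of Ccr2 ran from 0.00180 to 0.0842, the last on slide 1 alone.

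The receptor Ccr1, which binds Ccl3, Ccl5 and Ccl7 among others, is read by the single probe A_44_P358235 (NM_020542). Its signal was -5.80, -5.39 and -5.20 in controls 1 to 3 and -5.12, -4.98 and -5.19 in NDMA animals 1 to 3. The groups just failed to touch, with NDMA animal 3 barely above control 3, and all 6 values were near the lowest signals well above background, which lay between -6.58 and -5.92 on the 6 arrays. The difference was 0.37 ± 0.17 with a 95% interval of -0.03 to 0.77 (adjusted p = 0.294, limma), with normexp it was -0.16, and without control 1 it was 0.20.

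**Figure D2:**
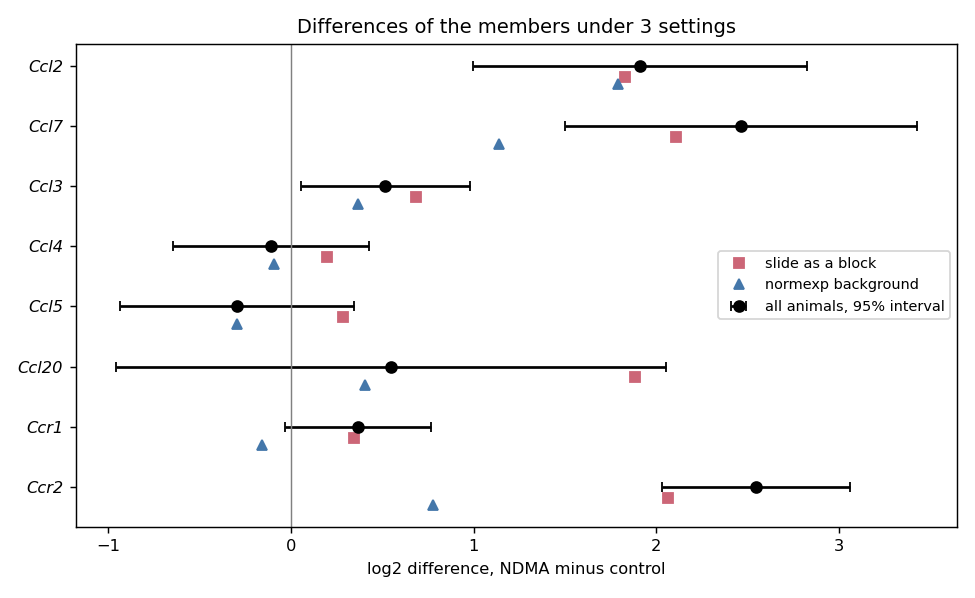
Log2 difference between the groups (horizontal axis, NDMA minus control) for each of the 8 genes by the brightest probe. Black points with bars are the fit to all animals with its unadjusted 95% interval, red squares the fit with the slide as a block, and blue triangles the fit after normexp background correction. Ccr2 and Ccl7 lie at 2.55 and 2.46 and move to 0.78 and 1.14 with normexp, and Ccl20 moves from 0.55 to 1.89 with the slide as a block.

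Ccl3 and Ccl4, the macrophage inflammatory proteins MIP-1 alpha and beta, attract monocytes, macrophages and T cells, and Ccl3 binds Ccr1. Ccl3 is read by the single probe A_42_P714311 (NM_013025), with signals of -1.71, -1.05 and -1.63 in controls 1 to 3 and -0.78, -1.03 and -1.03 in NDMA animals 1 to 3. All NDMA rats lay above the controls, but control 2 nearly reached the lowest NDMA value. The difference was 0.52 ± 0.19 with a 95% interval of 0.05 to 0.98 (adjusted p = 0.226, limma), and over the other settings the adjusted p ranged from 0.0686 to 0.550.

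Ccl4 had signals of -2.37, -2.06 and -2.60 in the controls and -2.15, -2.87 and -2.34 in the NDMA rats by the probe A_64_P015460 (NM_053858). The groups overlapped, and the highest value was that of control 2 and the lowest that of NDMA animal 2. The difference was -0.11 ± 0.22 with a 95% interval of -0.65 to 0.43 (adjusted p = 0.820, limma), and the other probe, A_44_P212551, gave -0.11 ± 0.27 with the same highest animal, control 2, and the same lowest, NDMA animal 2. Blocking on slide turned the sign, to 0.20 ± 0.29.

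Ccl5 encodes RANTES, a ligand of Ccr1 made by T cells and other cells. By the probe A_64_P115060 (NM_031116) its signal was 1.43, 1.88 and 1.81 in controls 1 to 3 and 1.99, 1.07 and 1.17 in NDMA animals 1 to 3. NDMA animal 1, on the slide of the controls, was the highest of the 6, and the pair of NDMA rats on slide 2 were the lowest. The other probe, A_44_P304323, had the same arrangement, with 0.56, 0.92 and 0.90 in the controls and 1.13, -0.05 and 0.10 in the NDMA rats. The difference was -0.29 ± 0.27 with a 95% interval of -0.93 to 0.34 (adjusted p = 0.576, limma), and blocking on slide gave 0.29 ± 0.20 (adjusted p = 0.778, limma), with 0.135 to 0.873 as the range of the adjusted p over the other settings. Without NDMA animal 1 the difference was -0.59 ± 0.16 (adjusted p = 0.135, limma), without NDMA animal 2 -0.12 and without NDMA animal 3 -0.17. Slide and animal cannot be told apart on slide 2, which holds NDMA rats only.

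Ccl20 encodes MIP-3 alpha, an epithelial chemokine whose receptor is Ccr6, and its promoter window holds the NF-kB letters only. By the probe A_64_P157743 (NM_019233) its signal was -2.67, -2.17 and -1.29 in controls 1 to 3 and -0.16, -2.23 and -2.10 in NDMA animals 1 to 3. NDMA animal 1 was the highest of the 6 and the other NDMA rats lay among the controls. The probe A_43_P11985 had its highest value in NDMA animal 1 too, at -0.74, against -2.85 and -2.54 in the other NDMA rats and -3.28, -2.82 and -1.82 in the controls. The difference was 0.55 ± 0.62 with a 95% interval of -0.96 to 2.05 (adjusted p = 0.662, limma). It was -0.12 without NDMA animal 1, and 1.89 ± 0.51 when blocking on slide (adjusted p = 0.279, limma), and the adjusted p over the other settings ran from 0.279 to 0.904.

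The other ligands of the family were examined from a list of 14 genes. Of these 12 were tested, 4 were called higher and 0 lower by limma (7 and 1 at an unadjusted p under 0.05), with a median difference of 0.67 against -0.05 over all features. Ccl19, a ligand of Ccr7 that guides T cells and dendritic cells, had the largest difference, from 1.22, 0.90 and 0.60 in the controls to 3.12, 2.74 and 3.42 in the NDMA rats. The groups were far apart, with a rise of 2.19 ± 0.22 (4.55-fold, adjusted p = 0.00903, limma), kept in all 6 fits without 1 animal. Ccl1, which 2 of the 3 controls measured above background and which met the filter through the NDMA group alone, rose by 1.67 ± 0.26 (3.19-fold, adjusted p = 0.0293), Ccl9 by 1.14 ± 0.19 (2.21-fold) and Ccl6 by 1.08 ± 0.19 (2.11-fold), and these calls were kept in 2, 1 and 1 of those 6 fits. The call of Ccl1 was lost without control 1 or any NDMA animal (differences of 1.42 to 1.86 over the 6 fits), that of Ccl9 was kept only without control 1 (0.99 to 1.31) and that of Ccl6 only without control 2 (0.96 to 1.26). With normexp Ccl1 was at 0.54 and Ccl9 at 0.58, and both passed. Ccl17, a ligand of Ccr4, differed by 0.94 ± 0.23 (adjusted p = 0.10), Ccl21 by 0.68 ± 0.26 and Ccl12 by 0.66 ± 0.46, without passing. Ccl25 and Ccl26 had probes but did not meet the detection filter.

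Of the 7 other receptors reported here 6 had a probe, 4 were tested, and 0 were called by limma (1 higher and 1 lower at an unadjusted p under 0.05), with a median difference of 0.25. Ccr6, the receptor of Ccl20, differed by 1.36 ± 0.30 (adjusted p = 0.0761), its groups did not overlap, and NDMA animal 1 was the highest at -1.18, the animal that was highest for Ccl20. Ccr7, the receptor of Ccl19, differed by 0.42 ± 0.30 and Ccr10 by -0.26 ± 0.09. Ccr3 and Ccr4 had probes but did not meet the detection filter.

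**Figure D3:**
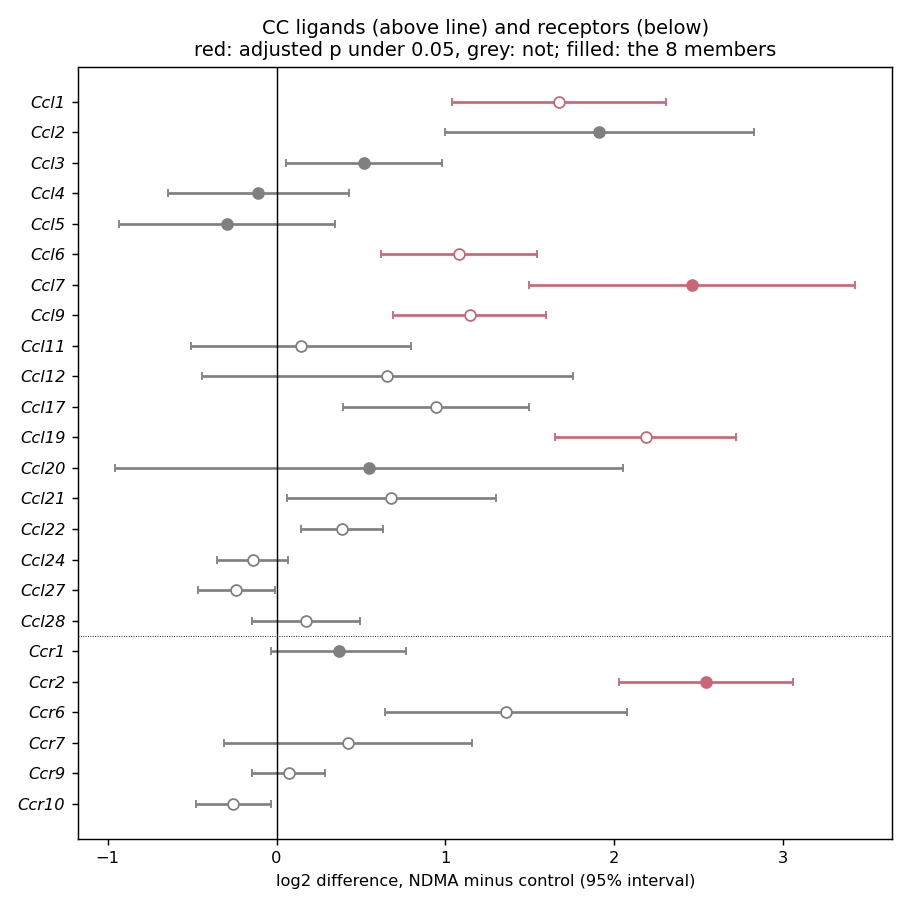
Log2 difference between the groups (horizontal axis, NDMA minus control) with its unadjusted 95% interval for the 18 CC ligands and 6 CC receptors that were tested and are reported here, each by its brightest probe. Red marks an adjusted p under 0.05 and filled points the 8 chosen genes. Ccl1, Ccl6, Ccl7, Ccl9, Ccl19 and Ccr2 were called, all higher in NDMA, and Ccl4, Ccl5, Ccl24, Ccl27 and Ccr10 lie below 0.

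Ccl2, Ccl3, Ccl4, Ccl5 and Ccl7 lie on chromosome 10, in runs of CC ligand genes with no other protein-coding gene between neighbours in the RefSeq table, and Ccl20 lies on chromosome 9. Ccl2 and Ccl7 are followed by Ccl11, Ccl12 and Ccl1, and a separate run holds Ccl5, Ccl9, Ccl6, Ccl3 and Ccl4. In the first run Ccl2, Ccl7, Ccl12 and Ccl1 all had their lowest control value in control 3 and their highest NDMA value in NDMA animal 3, a combination found in 10.5% of 31905 features. Ccl11, the eosinophil chemokine eotaxin, did not share it and differed by 0.15 ± 0.27. In the second run no gene had that combination, Ccl9 and Ccl6 rose, and Ccl5, Ccl3 and Ccl4 did not pass. The combination was not particular to the first run, since Ccl19 on chromosome 5 had it too (control 3 at 0.60, NDMA animal 3 at 3.42). Whether position on the chromosome has a part in it was not tested. Neighbouring genes of this family are similar in sequence, and whether a probe also binds a relative's transcript was not tested.

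**Figure D4:**
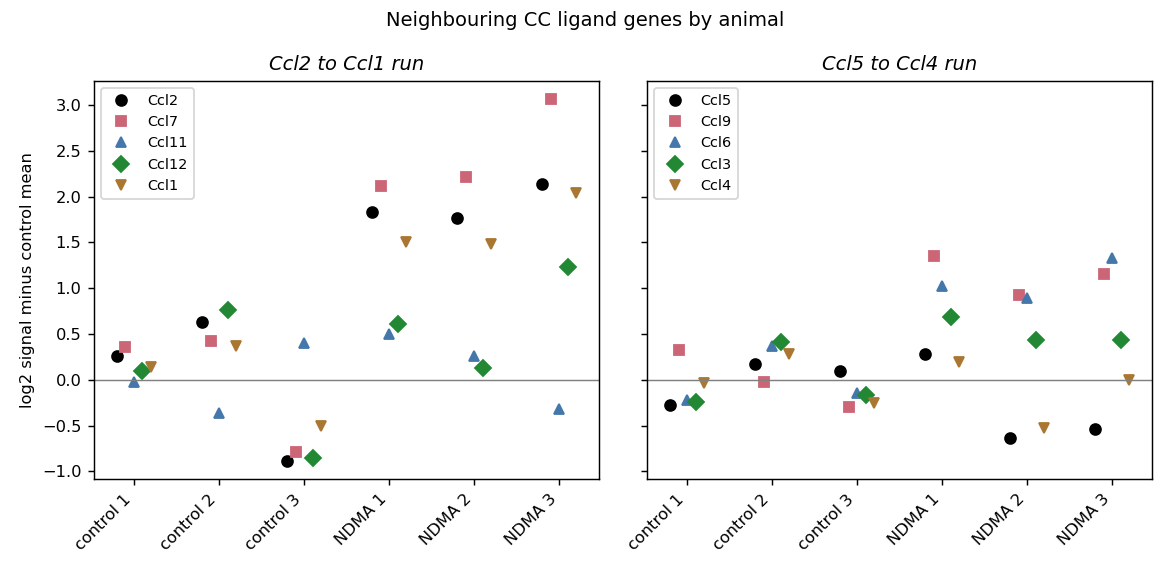
Log2 signal minus the control mean (vertical axis) in each animal for 2 runs of neighbouring CC ligand genes, each gene by its brightest probe. In the run from Ccl2 to Ccl1 control 3 is low and NDMA animal 3 high for Ccl2, Ccl7, Ccl12 and Ccl1 and not for Ccl11. In the run from Ccl5 to Ccl4 the genes Ccl9, Ccl6 and, narrowly, Ccl3 lie above the controls in all 3 NDMA rats.

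Proteins that act on or below these receptors were followed in 3 further lists. Of 5 genes for enzymes that modify chemokines or their receptors 0 were called by limma (2 at an unadjusted p under 0.05). Qpct, a glutaminyl cyclase that caps the first residue of Ccl2, differed by 0.87 ± 0.18 without overlap (adjusted p = 0.0657), Tpst2, which sulphates receptor tyrosines, by -0.32 ± 0.08, and Dpp4, a brush border peptidase that trims chemokines, by -0.23 ± 0.13. Of the atypical receptors, which bind chemokines without G protein signalling, 2 of 5 were tested and 0 were called by limma (0 at an unadjusted p under 0.05), with Ackr3 at -0.09 ± 0.22 and Ccrl2 at 0.08 ± 0.12.

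Of 18 tested genes of signalling below the receptors that are reported here 4 rose and 0 fell by limma (9 and 0 at an unadjusted p under 0.05), with a median difference of 0.20. The exchange factor Vav1 rose by 1.53 ± 0.22 (adjusted p = 0.0225), the GTPase Rac2 of blood cells by 1.21 ± 0.14 (0.0114), the protein kinase C gene Prkcb by 1.14 ± 0.17 (0.0270) and the receptor-desensitising arrestin Arrb2 by 0.45 ± 0.08 (0.0434). All 4 Prkcb probes passed in the fit over probes, 3 of them with differences of 1.00 to 1.26 and 1 that no control measured above background. The Rac2 probes were at 1.21 and 1.30, and the other Arrb2 probe did not pass (0.34 ± 0.11). With normexp Vav1 was at 0.96 and passed. These calls were kept in 2, 5, 1 and 0 of the 6 fits without 1 animal. Rac2 lost its call without NDMA animal 3 (1.14 to 1.35 over the 6 fits), Vav1 without control 1, control 2 or NDMA animals 2 or 3 (1.38 to 1.73), Prkcb without any animal but control 2 (1.00 to 1.32) and Arrb2 without any animal (0.42 to 0.49). Rgs1, a regulator of G protein signalling, differed by 1.08 ± 0.38, Plcb2, a phospholipase C, by 0.96 ± 0.39 and the kinase Fgr by 0.79 ± 0.22, without passing. The other Plcb2 probe differed by 1.44 ± 0.27 and passed in the fit over probes (adjusted p = 0.0476, limma), and 1 of the 3 controls measured either Plcb2 probe above background. Over the 41 tested genes of all 5 lists 8 were called, and leaving out 1 animal gave 3, 6 and 4 without controls 1 to 3 and 4, 2 and 1 without NDMA animals 1 to 3. Blocking on slide, 0 of the 41 were called by limma, with 12 at an unadjusted p under 0.05.

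For each of the 8 genes, the RefSeq-named features with the most similar profile over the 6 arrays were taken, by the root mean square difference of signals reduced by their control mean, among those well above background on all arrays. Nearest to Ccr2 were Ptx3, a pentraxin, at 0.06, the GTPase Gbp2 at 0.07 and the glycoprotein Gpnmb at 0.14, with differences of 2.52, 2.57 and 2.62 between the groups. Nearest to Ccl7 were the complement gene C2 at 0.31, the T cell receptor chain Cd3g at 0.34 and Pla2g2d at 0.37. Ccl2 lay nearest to Zc3h12d at 0.28, Lilrb4 at 0.28 and the chemokine receptor Cxcr3 at 0.30. Nearest to Ccl3 was Gimap1 at 0.12, to Ccl4 Or1o11 at 0.08, to Ccl5 Chrm3 at 0.12, to Ccl20 Tex21 at 0.27 and to Ccr1 Qser1 at 0.07. This likeness was taken over all 3 arrays of each group, so it includes the group difference and is a description. For Ccr2 it also rests on control values that were not well above background. The difference of Ccr2 was 0.78 with normexp, and likeness under normexp is not given.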

How the data were processed

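The authors ran Agilent Feature Extraction to read the spots (10.7 in the submitters' processing notes, 10.7.1.1 per the file headers). Per the file headers, the processed intensity had background and a spatial trend removed within each array, and arrays were not scaled to each other. The authors' deposited value table holds a linear ratio. It matched an array's processed intensity over that array's 75th percentile to within 0.00174 on the log2 scale, for values above 0.1.

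Here each array's log2 processed intensities had the 75th percentile of the 61657 non-control probes subtracted, and 18 spots flagged as outliers among the probes kept were left out. A probe was kept (43118 were) where all 3 animals of either group measured it well above background, each gene was read by its brightest kept probe, and 31915 features were fitted with limma 3.58.1 in R 4.3.3 (a linear model with empirical Bayes moderation, a two-sided test with 4 residual and 2.36 prior degrees of freedom), with a second fit over probes. The fit was also run on simulated arrays with independent noise and no slide effect, so that run does not bear on the slides. The number of arrays limits the precision. Names came from RefSeq accessions (27460 probes named), and the array's annotation is of build rn4, so no coordinates were taken from it. Alternatives were scaling, normexp with an offset of 50 on the median spot and background signals, the filter, the probe rule, the variance model, the value table, slide and replicate blocks and leaving out each animal.

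Each replicate is an animal of its own, per the labels' treatment protocol. All 8 genes are named, with the list genes that passed, up to 3 others of each list with the largest differences, and the 3 features most alike each of the 8. Ccl11 and the genes named only as markers or as not detected were chosen after their values were seen. The members, lists and tests were chosen with earlier results of these data known. All 8 genes met the detection filter, so no exact permutation test, which cannot go below 0.1 with 3 against 3, was needed. Some genes of the lists are not reported here and were left out of the list counts, but stayed in the fits. Neither probe sequences nor protein sequences were used here.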

Additional observations from a re-analysis of the deposited data

How the results depend on the processing

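Limits: the design has 3 animals a group, and NDMA animals 2 and 3 have a slide of their own. Ccr2, Ccl7 and Ccr1 are near background, and their differences changed in size or sign with normexp, which differs in the input signal (median), the correction and the offset at once, so which of these moved them was not tested. Of the 8 genes 2 were called in the fit reported, 1 without a detection filter, 1 with the slide as a fixed block and 0 on slide 1 only (limma, 4 at an unadjusted p under 0.05). It was also 0 when all 6 arrays had to measure a probe well above background, where 6 of the 8 were tested and Ccl7 and Ccr2 were not (limma, 2 at an unadjusted p under 0.05), and leaving out 1 animal gave 1 to 3. Of the 13 probes 4 were called, and 2, 1, 0 and 0 in those settings (limma, 7 and 2 at an unadjusted p under 0.05 in the last 2 settings), with 2 to 5 without 1 animal. Of the 41 pathway genes 8 were called, 2 without a filter, 0 with the slide as a block, 0 on slide 1 only (limma, 12 at an unadjusted p under 0.05 in either) and 1 to 6 without 1 animal. Over all features 957 were called (84.1% higher), 371 without a filter, 67 with the slide as a block, 0 on slide 1 only (limma, 3502 at an unadjusted p under 0.05) and 364 to 749 without 1 animal. With normexp 1091 were called, 66.7% of them higher. Some of these fits had fewer arrays or fewer features, and the fit without a filter had more features. The cause of these changes was not tested.

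Directions changed only for genes that were not called. Ccl4 was at 0.20 with the slide as a block and on slide 1 only, and from -0.26 to 0.10 over the fits without 1 animal, at 0.10 without NDMA animal 2 and at 0.03 without control 2. Ccl5 was at 0.29 with the slide as a block and on slide 1 only, Ccl20 from -0.12 (without NDMA animal 1) to 0.93 over the fits without 1 animal, and Ccr1 at -0.16 with normexp. Ccr2 kept its call in 16 of 17 settings, the exception being slide 1 only (adjusted p = 0.0842, limma), and Ccl7 in 8 of 17. Ccl2 passed in 3 of 18, both normexp settings and without control 3.

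Same-numbered animals of the groups did not deviate together, with correlations of 0.04, -0.05 and 0.03 over features. Animals with unlike numbers had correlations from -0.10 to 0.08. No sign of pairing by replicate number was seen, but with 3 animals a group such a check cannot exclude it. With a replicate block 1 of the 8 genes (Ccr2), 2 of the 13 probes, 3 pathway genes and 351 features were called.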
